A study of Mus musculus with 12 samples.

Results

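Gdap1 and 9 further genes that encode the proteins dividing and joining mitochondria were followed in cultured fibroblasts of mouse embryos, some of them without Gdap1. The 10 genes were Gdap1 and its close relative Gdap1l1, the fission genes Dnm1l, Mff and Fis1, the fusion genes Mfn1, Mfn2 and Opa1, and Oma1 and Yme1l1, the proteases that cut the Opa1 protein. They were taken by gene symbol from 22180 genes measured on 1-colour Affymetrix arrays, each gene at its brightest probe set, and each of the 10 had 1 probe set.

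Mitochondria form a network that divides and fuses all the time. For division, the dynamin-like GTPase Dnm1l (Drp1) is drawn from the cytosol to the outer membrane by receptors such as Mff and Fis1. For fusion, the GTPases Mfn1 and Mfn2 join outer membranes and Opa1 joins inner membranes, while Oma1 and Yme1l1 cut Opa1 into long and short forms. GDAP1 sits in the outer membrane and favours fission in cultured cells, and its human mutations cause a form of Charcot-Marie-Tooth neuropathy. Mitochondria become shorter and more fragmented early in reprogramming of fibroblasts to induced pluripotent stem cells.

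The 12 arrays made 4 groups of 3. Wild-type cells (WT) and cells null for Gdap1 (KO) were each profiled before reprogramming, called day 0, and at day 4 after delivery of Oct4, Sox2, Klf4 and cMyc. The comparison asks what loss of Gdap1 changes in fibroblasts and in early reprogramming. All cells grew in DMEM with serum, and the treatment label, the same on every array, allows either a mock transduction or one with the factors, and does not say which the day 0 cells had. The null allele, the mouse strain, the age of the embryos and the source of each replicate are not described, so p-values measure only the spread between these samples, which may be technical, and batch and genotype cannot be told apart.

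The number of arrays limits the precision. Levels are log2 values as the authors deposited them. The lowest correlation across genes between arrays of a group was 0.997 in both day 0 groups, 0.993 in KO day 4 and 0.986 in WT day 4, where array 1 stood apart with the lowest array weight (0.314). Of all genes, 22.9% passed in WT and 30.8% in KO cells over time. Between genotypes 5.6% of all genes passed at day 0 and 20.7% at day 4. All 12 fibroblast markers lay above the 90th percentile of levels, though many of them moved. Over time 9 of 12 passed in WT cells, 2 higher and 7 lower, and 7 of 12 in KO cells, 1 higher and 6 lower. Between genotypes 3 passed at day 0, all higher in KO cells, and 5 at day 4, 2 higher and 3 lower. Of 6 epithelial markers 4 passed in WT cells over time, 3 higher and 1 lower, and 2 in KO cells, 1 in each direction. Between genotypes 2 and 3 passed, all lower in KO cells. Of 7 endothelial markers 3 passed in each genotype over time, 1 higher and 2 lower. Tek rose by 4.08 in WT and 4.12 in KO cells, and the lowest change of the list was -2.11 and -0.75. Between genotypes 2 and 1 passed, lower in KO cells. Of 6 skeletal muscle markers Acta1 and Des passed over time, lower at day 4 in both genotypes, and 0 between genotypes. Of 7 neural and Schwann cell markers 2 passed in each genotype over time. In WT cells 1 was higher and 1 lower, and in KO cells both were higher. Map2 alone passed between genotypes, lower in KO cells at both days. Macrophage and blood markers moved with genotype: 7 of 8 were lower in KO cells at day 0 and 7 of 8 at day 4, and no marker of the list lay under the 25th percentile of levels on all arrays. The log2 of their summed linear levels ran from 10.38 to 10.45 in WT day 0 and from 10.45 to 11.35 in WT day 4. It ran from 8.79 to 8.88 in KO day 0 and from 9.01 to 9.07 in KO day 4. Within WT day 4 each marker of the list read highest on array 1, such as Lyz2 (10.44 against 9.33 and 9.32). In such bulk RNA fewer cells of a type and less RNA per cell cannot be told apart, and the part of all these markers in the differences below was not tested.

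Of the 10 genes, 5 moved in at least 1 of 5 comparisons, and none by more than 1.49-fold. The share of all genes that passed in at least 1 of the 5 was not counted. It is at least the 30.8% that passed in KO cells over time alone. The tests were limma's moderated tests on all 12 arrays, passed at an adjusted p under 0.05 over all 22180 genes. In KO cells from day 0 to day 4, 2 of the 10 (Mfn1 and Oma1) rose and 3 (Fis1, Mfn2 and Mff) fell, where 30.8% of all genes passed, 13.8% higher and 16.9% lower. In WT cells over the same step only Mfn2 passed, falling, where 22.9% of all genes passed, 11.1% higher and 11.7% lower. KO cells at day 4 had higher Mfn1 and Oma1 and lower Fis1 than WT cells at day 4, 3 of the 10, where 20.7% of all genes passed, 8.34% higher and 12.4% lower. At day 0 the same test found 0 of 10 between the genotypes, with 2 at an unadjusted p under 0.05 (Mfn1 and Oma1), and 5.6% of all genes passed, 2.48% higher and 3.12% lower. The day 4 change itself differed between the genotypes for Mfn1 alone, where 3.95% of all genes passed, 2.15% with a higher and 1.81% with a lower change in KO cells. The 3 arrays of each group did not overlap for 4 of the 10 genes between genotypes at day 0 (29.5% of all genes), for 4 at day 4 (31.6%), for 5 in WT cells over time (36.3%) and for 6 in KO cells over time (45.3%), shares that are read here only as a background. The median change of the 10 genes was -0.00 in KO cells and -0.16 in WT cells over the 4 days, against -0.01 and -0.01 for all genes tested. KO minus WT had a median of -0.00 at day 0 and 0.09 at day 4, against -0.00 and 0.00 for all genes. The comparisons share groups, so their counts are not independent of each other.

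**Figure D1:**
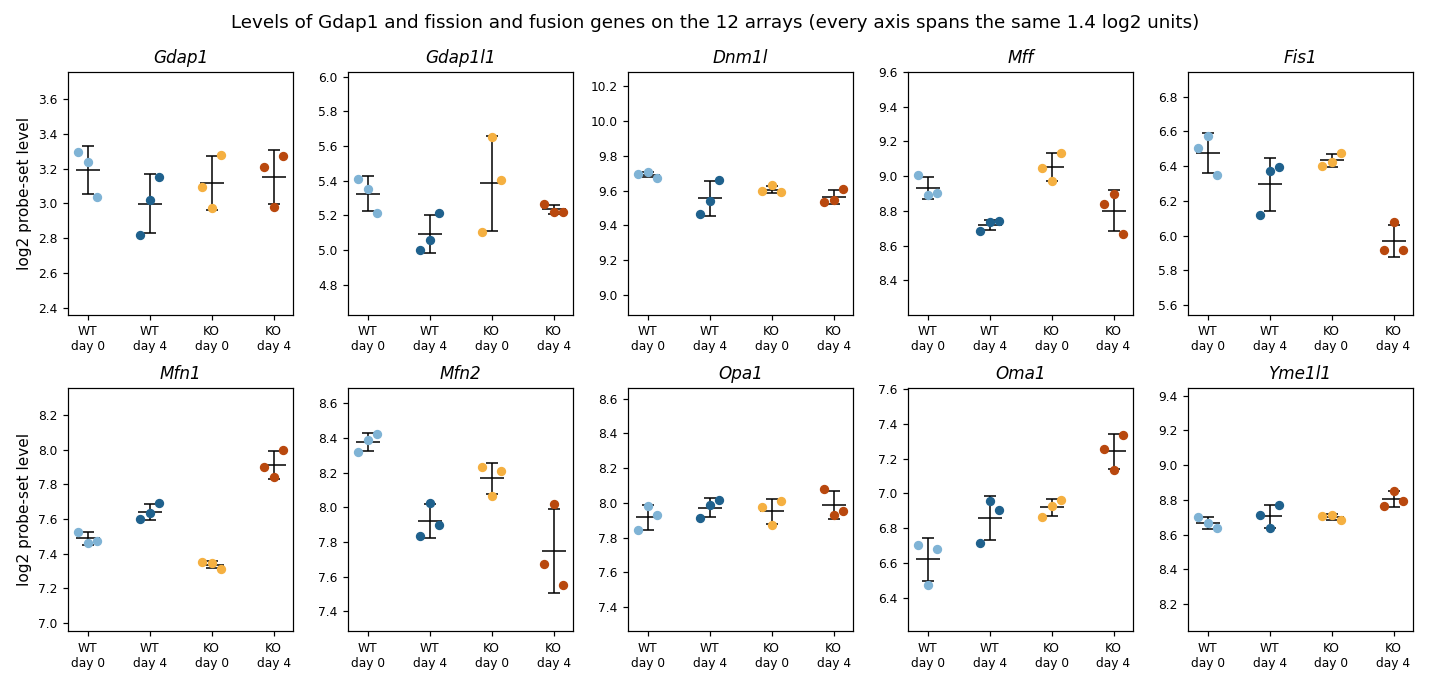
Log2 probe-set levels of the 10 genes (vertical axes, each spanning the same range) in the 4 groups of 3 arrays; points are arrays, the bar is the group mean and the whiskers are 1 SD. Mfn1 and Oma1 are highest and Fis1 lowest on the KO day 4 arrays, and Gdap1 stays between 2.82 and 3.30 on every array.

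Gdap1, the gene made null, read near the floor in every group. Its log2 levels were 3.30, 3.24 and 3.04 in WT day 0, 2.82, 3.02 and 3.15 in WT day 4, 3.10, 2.97 and 3.28 in KO day 0, and 3.21, 2.98 and 3.28 in KO day 4. All 12 values lay under 3.75, the 25th percentile of gene levels, and the arrays of all groups overlapped. At day 0 the difference KO minus WT came to -0.08 ± 0.12 (limma SE, n = 3 each, adjusted p = 0.831), and at day 4 to 0.16 ± 0.12 (adjusted p = 0.395). The order of the group means, WT day 0, KO day 4, KO day 0 and WT day 4, held no step larger than the spread of its neighbours. How the null allele was made is not given in the sources used here, so this probe set does not check the genotype labels.

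Gdap1l1, the relative best known from neurons, read 5.41, 5.35 and 5.21 in WT day 0, 5.002, 5.06 and 5.21 in WT day 4, 5.10, 5.65 and 5.40 in KO day 0, and 5.27, 5.22 and 5.22 in KO day 4. It passed in no comparison, and its 3 KO day 0 arrays spread more (SD 0.27, n = 3) than any other group of it. At day 4 the KO arrays all lay above the WT arrays, by 0.14 ± 0.12 on average (adjusted p = 0.444, 95% interval -0.12 to 0.40). That interval includes a difference of the size seen for Mfn1.

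Among the fission genes, Fis1 fell in KO cells. Fis1, a tail-anchored outer-membrane protein, read 6.50, 6.57 and 6.35 in WT day 0, 6.12, 6.37 and 6.39 in WT day 4, 6.40, 6.42 and 6.48 in KO day 0, and 5.91, 6.08 and 5.92 in KO day 4. The KO day 4 arrays were the 3 lowest of the 12. Its level fell by 0.46 ± 0.09 on the log2 scale (1.38-fold, adjusted p = 0.002) in KO cells, while the change in WT cells was -0.18 ± 0.09 (adjusted p = 0.207). At day 4 Fis1 was 0.32 ± 0.09 lower in KO than in WT cells, written as KO minus WT -0.32 (adjusted p = 0.0263). The difference of the 2 changes did not pass (-0.28 ± 0.13, adjusted p = 0.265). This genotype call missed the threshold when WT day 4 array 2 (adjusted p = 0.0908) or 3 (0.103) or KO day 4 array 1 (0.0806) or 3 (0.0782) was omitted, and in a fit to the 2 groups alone (0.104). WT day 4 array 1 was the lowest of its group for Fis1, and without it KO minus WT was -0.41 (adjusted p = 0.00444).

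Mff, the main receptor of Dnm1l, read 9.004, 8.89 and 8.90 in WT day 0, 8.68, 8.73 and 8.74 in WT day 4, 9.05, 8.97 and 9.13 in KO day 0, and 8.84, 8.90 and 8.67 in KO day 4. Within each genotype the day 4 arrays lay below the day 0 arrays. The fall passed in KO cells (-0.25 ± 0.08, 1.19-fold, adjusted p = 0.0301) and missed the threshold in WT cells (-0.21 ± 0.08, adjusted p = 0.0773), and the changes of both genotypes differed by -0.04 ± 0.11 (95% interval -0.28 to 0.21). The KO call was lost without KO day 0 array 1 (adjusted p = 0.0729) or 3 (0.118), without KO day 4 array 3 (0.124), with quantile normalization (0.103) and in a fit to the KO arrays alone (0.065).

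Dnm1l, the GTPase that cuts the membrane, read 9.70, 9.70 and 9.67 in WT day 0, 9.46, 9.54 and 9.66 in WT day 4, 9.60, 9.63 and 9.59 in KO day 0, and 9.54, 9.55 and 9.61 in KO day 4. The WT day 0 arrays were the 3 highest, and the other 3 groups overlapped. No comparison passed. KO minus WT was 0.01 ± 0.07 at day 4 with a 95% interval from -0.15 to 0.16, and -0.09 ± 0.07 at day 0 with an interval from -0.24 to 0.07. The change from day 0 was -0.14 ± 0.07 in WT cells (adjusted p = 0.211) and -0.04 ± 0.07 in KO cells (adjusted p = 0.701).

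The mitofusins moved apart at day 4. Mfn1 read 7.53, 7.46 and 7.48 in WT day 0, 7.60, 7.63 and 7.69 in WT day 4, 7.35, 7.35 and 7.31 in KO day 0, and 7.90, 7.84 and 7.996 in KO day 4. No 2 of the 4 groups overlapped, and their order ran from KO day 4 through WT day 4 and WT day 0 to KO day 0. Mfn1 rose by 0.57 ± 0.07 in KO cells (1.49-fold, adjusted p = 4.74e-05), against a change of 0.15 ± 0.07 in WT cells (adjusted p = 0.145). The change was larger in KO cells by 0.42 ± 0.10 (adjusted p = 0.0325), and KO minus WT was 0.27 ± 0.07 at day 4 (1.21-fold, adjusted p = 0.0153) against -0.15 ± 0.07 at day 0 (adjusted p = 0.296). The rise in KO cells passed in each of 12 omissions of 1 array.

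The other calls of Mfn1 were less stable. The call on the difference of changes was lost in 9 of 12 omissions of 1 array, which left changes between 0.38 and 0.46 with adjusted p from 0.0287 to 0.0898. It was kept only when KO day 4 array 2 or WT day 4 array 3 or 1 was omitted, the last with a value of 0.40 (adjusted p = 0.0297). The day 4 genotype call was lost without KO day 4 array 3 (0.23, adjusted p = 0.0587) and in a fit to the 2 groups alone (adjusted p = 0.0997).

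Mfn2, which also tethers mitochondria to the endoplasmic reticulum, read 8.32, 8.39 and 8.42 in WT day 0, 7.84, 8.03 and 7.90 in WT day 4, 8.23, 8.07 and 8.21 in KO day 0, and 7.68, 8.02 and 7.55 in KO day 4. Every day 4 array lay below every day 0 array. The fall was -0.46 ± 0.11 in WT cells (1.37-fold, adjusted p = 0.00844) and -0.42 ± 0.11 in KO cells (1.34-fold, adjusted p = 0.0106), a difference of 0.04 ± 0.15 with a 95% interval from -0.30 to 0.37. Both calls passed in all 12 omissions of 1 array. KO minus WT did not pass at day 0 (-0.21 ± 0.11, adjusted p = 0.386) or at day 4 (-0.17 ± 0.11, adjusted p = 0.306). KO day 4 array 2 stood above the others of its group, and without it the day 4 difference was -0.31 (adjusted p = 0.0367).

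Opa1, the inner-membrane GTPase, hardly varied. Its levels were 7.84, 7.98 and 7.93 in WT day 0, 7.91, 7.99 and 8.02 in WT day 4, 7.98, 7.87 and 8.01 in KO day 0, and 8.08, 7.93 and 7.95 in KO day 4. All neighbouring groups overlapped. The 95% intervals of its changes ran from -0.11 to 0.22 in WT cells and from -0.13 to 0.20 in KO cells.

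Oma1, the stress-activated protease of Opa1, was highest in KO cells at day 4. It read 6.70, 6.47 and 6.68 in WT day 0, 6.71, 6.96 and 6.90 in WT day 4, 6.87, 6.93 and 6.96 in KO day 0, and 7.25, 7.13 and 7.34 in KO day 4. The KO day 4 arrays were the 3 highest and the WT day 0 arrays the 3 lowest, with WT day 4 and KO day 0 overlapping between them. KO minus WT was 0.38 ± 0.09 at day 4 (1.305-fold, adjusted p = 0.011) and 0.30 ± 0.09 at day 0 (adjusted p = 0.0883). From day 0 to day 4 Oma1 rose by 0.32 ± 0.09 in KO cells (1.25-fold, adjusted p = 0.0174), against 0.24 ± 0.09 in WT cells (adjusted p = 0.0858), and the 2 changes differed by 0.08 ± 0.13 (95% interval -0.20 to 0.37). The rise in KO cells did not pass without KO day 0 array 1 (adjusted p = 0.0651) or KO day 4 array 3 (0.0696) or with arrays centred on their medians (0.0543). The day 4 difference passed in all 12 omissions and missed the threshold in a fit to the 2 groups alone (0.0598). Without WT day 4 array 1, Oma1 also passed for KO minus WT at day 0 (0.30, adjusted p = 0.0441) and for the rise in WT cells (0.31, adjusted p = 0.0302).

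Yme1l1, the ATP-dependent protease of the inner membrane, read 8.70, 8.67 and 8.64 in WT day 0, 8.71, 8.64 and 8.77 in WT day 4, 8.71, 8.71 and 8.68 in KO day 0, and 8.76, 8.85 and 8.80 in KO day 4. The KO arrays of day 4 lay above those of day 0, by 0.10 ± 0.07 on average (adjusted p = 0.29). KO minus WT at day 4 was 0.10 ± 0.07 (95% interval -0.05 to 0.24).

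**Figure D2:**
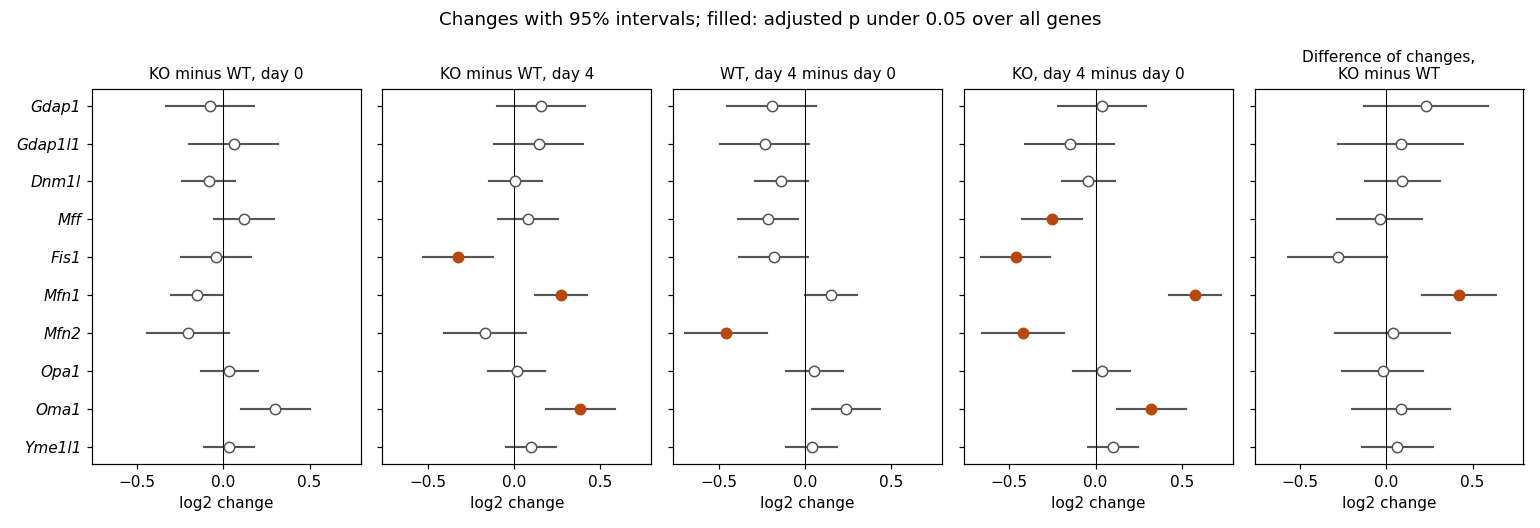
Changes of the 10 genes on the log2 scale (horizontal axes) in the 5 comparisons, with 95% intervals of the linear model; filled points passed at an adjusted p under 0.05 over all genes. No point is filled between the genotypes at day 0, 3 are filled at day 4, 1 in WT cells over time, 5 in KO cells over time, and Mfn1 alone in the difference of changes.

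The proximal promoters of the 5 genes that moved are shown with short motifs marked, because some of these genes moved together and others apart. RefSeq promoters (GRCm38.p6) were matched for 8 of the 10 genes. The window of each gene was the 250 bases before the outermost start listed among these promoters. For Oma1 and Yme1l1 the whole window lay inside the annotated gene, which begins at 103311875 and 23155442. For Mfn1, Opa1 and Dnm1l the window reached into the annotated gene. Both strands were searched for the NRF1 motif, ETS (CCGGAAGT), the E-box bound by MYC (CACGTG), the GC box of Sp and Klf factors (GGGGCGG), the octamer bound by Oct4 (ATGCAAAT) and ERR (TCAAGGTCA). Capitals mark matches, none of which overlapped, and sequences run 5′ to 3′ on the gene's strand. Mfn1 lies at chr3:32529232-32529481 (+), Oma1 at chr4:103313596-103313845 (+), Mfn2 at chr4:147904910-147905159 (-), Fis1 at chr5:136953025-136953274 (+) and Mff at chr1:82724640-82724889 (+).
Mfn1: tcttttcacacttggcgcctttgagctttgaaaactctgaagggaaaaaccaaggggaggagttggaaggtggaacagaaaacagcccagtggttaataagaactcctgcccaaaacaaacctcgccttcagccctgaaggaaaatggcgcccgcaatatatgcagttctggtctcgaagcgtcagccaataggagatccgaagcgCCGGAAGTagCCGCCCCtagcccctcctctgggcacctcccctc
Oma1: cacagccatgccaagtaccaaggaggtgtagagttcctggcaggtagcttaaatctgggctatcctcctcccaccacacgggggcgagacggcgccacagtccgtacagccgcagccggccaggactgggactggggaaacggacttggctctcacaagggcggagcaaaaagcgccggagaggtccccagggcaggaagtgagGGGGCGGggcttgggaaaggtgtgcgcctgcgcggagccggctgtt
Mfn2: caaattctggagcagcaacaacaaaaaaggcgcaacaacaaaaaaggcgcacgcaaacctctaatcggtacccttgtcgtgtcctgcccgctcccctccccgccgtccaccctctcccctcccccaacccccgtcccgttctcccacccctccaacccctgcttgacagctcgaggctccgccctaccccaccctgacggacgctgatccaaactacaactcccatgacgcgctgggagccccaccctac
Fis1: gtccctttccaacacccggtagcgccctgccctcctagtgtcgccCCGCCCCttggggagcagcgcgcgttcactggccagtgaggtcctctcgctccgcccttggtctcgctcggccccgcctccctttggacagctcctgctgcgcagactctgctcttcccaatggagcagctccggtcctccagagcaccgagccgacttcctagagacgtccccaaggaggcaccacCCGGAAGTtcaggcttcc
Mff: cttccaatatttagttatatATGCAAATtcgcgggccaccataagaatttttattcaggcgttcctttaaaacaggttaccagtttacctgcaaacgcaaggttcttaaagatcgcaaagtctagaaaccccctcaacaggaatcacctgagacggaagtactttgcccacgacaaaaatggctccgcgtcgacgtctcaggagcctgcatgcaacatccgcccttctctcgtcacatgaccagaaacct

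Mfn1, which rose, and Fis1, which fell, both held an ETS motif and a GC box, at 44 and 34 bases before the start in Mfn1 and at 18 and 205 bases in Fis1. Oma1 held a GC box 46 bases before its start, Mff held the octamer 230 bases before, and Mfn2 held none of the 6 motifs. Of the genes that did not move, Yme1l1 held a GC box 46 bases before its start, Opa1 an NRF1 motif 59 bases before and Dnm1l none. Among 27025 promoters cut to the same window, 2.92% held the ETS motif, 21.2% the GC box, 1.62% the octamer, 0.777% the NRF1 motif, 6.04% the E-box and 0.366% the ERR motif. Distances count from the start used for the window, which for Oma1, Yme1l1, Mfn1, Opa1 and Dnm1l lies inside the annotated gene. A match describes letters only and does not show binding.

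For the 4 genes with the smallest adjusted p, the genes most alike over the 12 arrays were found by the root mean square difference of centred levels. Mfn1 was closest to Atf7, a transcription factor gene (0.05), Trappc13 (0.05) and Eif3e, a subunit gene of translation factor eIF3 (0.07). Fis1 was closest to Nacc2 (0.06), Elavl1, which encodes an RNA-binding protein (0.06), and Tma7 (0.06). Mfn2 was closest to Get4 (0.07), Bet1l (0.07) and Mgat1 (0.08), and Oma1 to Pgap2 (0.08), Asb3 (0.08) and Fam102b (0.08). Each of these differences, in log2 units, is smaller than the median SD of a gene within WT day 0 (0.09, n = 3). The genes were picked for the smallest differences over the genes tested, so small values follow from the choice itself.

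Around the 10 genes, 78 other genes of mitochondrial dynamics in 7 lists were counted, of 86 listed. In KO cells over the 4 days 25 fell and 7 rose, and in WT cells 14 fell and 8 rose. KO cells at day 4 had 19 lower and 6 higher than WT cells. At day 0, 0 of 78 passed between the genotypes by limma, where 5.6% of all genes passed, with 12 at an unadjusted p under 0.05. Without WT day 4 array 1, 3 of 78 passed there, all higher in KO cells: Bnip3 (1.19, adjusted p = 8.41e-07), Mgarp (0.67, adjusted p = 0.00855) and Inf2 (0.35, adjusted p = 0.0322). The count was 4 with array weights and 3 in a fit to the day 0 groups alone. Of all 22180 genes 1936, 2562 and 2453 passed in these 3 refits, in the order given. With 1 array omitted the count between genotypes at day 4 ran from 14, without WT day 4 array 3, to 31, without WT day 4 array 1. It was 11 in a fit to those groups alone. The counts over all 22180 genes moved the same way, to 2946, 5929 and 1923. The medians of the 78 genes were -0.12 in KO cells, -0.04 in WT cells, -0.09 for KO minus WT at day 4 and -0.04 at day 0, against -0.01, -0.01, 0.00 and -0.00 for all genes tested. That is 32 of 78 passed in KO cells, 28.2% in WT cells and 32.1% between genotypes at day 4, against 30.8%, 22.9% and 20.7% of all genes. Of the calls, 27 of 32 in KO cells, 17 of 22 in WT cells and 14 of 25 between genotypes at day 4 held in every omission of 1 array. With arrays centred on their medians, the split of all genes over time moved from 2469 higher and 2603 lower to 1979 and 3196 in WT cells, and from 3071 and 3757 to 2440 and 4751 in KO cells.

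Over time 4 of 11 other fission factors fell and 1 rose in each genotype, against 16.9% lower and 13.8% higher of all genes in KO cells and 11.7% and 11.1% in WT cells. In both genotypes Opa3 fell (-0.75 in KO and -0.45 in WT cells) and Mtfr2, a fission regulator, fell (-0.67 and -0.79), while Dnm1, the dynamin of neurons, rose (0.36 and 0.37). Mief2, a receptor of Dnm1l, fell by 0.65 ± 0.11 in KO cells (adjusted p = 0.000608) and was lower in KO than in WT cells at day 4 (-0.62 ± 0.11, adjusted p = 0.00197). Its paralog Mief1 also passed in KO cells (-0.24, adjusted p = 0.042, up to 0.139 without KO day 0 array 3). Inf2, a formin that assembles actin at sites of fission, read 7.87, 7.90 and 7.96 in WT day 0, 7.66, 7.01 and 6.78 in WT day 4, 8.32, 8.20 and 8.28 in KO day 0, and 8.21, 8.06 and 7.89 in KO day 4. It fell by 0.76 ± 0.17 in WT cells (adjusted p = 0.00571) and was 0.90 ± 0.17 higher in KO than in WT cells at day 4 (adjusted p = 0.00304), and every KO array lay above every day 4 WT array. Spire1, an actin nucleator, fell in WT cells (-0.27) and was higher in KO cells at day 4 (0.22, adjusted p = 0.036, up to 0.114 without WT day 4 array 2). Opa3 and Mtfp1, an inner-membrane fission protein, were lower in KO cells at day 4 (-0.47 and -0.40), the latter with an adjusted p of 0.0237, and 0.1 without WT day 4 array 3.

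Genes acting on Dnm1l had 4 of 9 lower in KO cells and 3 of 9 lower in WT cells over time, with 0 higher, against 16.9% and 11.7% of all genes lower. Dusp6, the ERK phosphatase, read 8.58, 8.87 and 8.47 in WT day 0, 7.52, 7.28 and 7.20 in WT day 4, 8.92, 8.77 and 9.03 in KO day 0, and 8.10, 8.49 and 8.23 in KO day 4. It fell by 1.31 ± 0.13 in WT cells (adjusted p = 1.48e-05) and by 0.63 ± 0.13 in KO cells (adjusted p = 0.00252), and was 0.94 ± 0.13 higher in KO than in WT cells at day 4 (adjusted p = 0.000474). Its 4 groups did not all separate: the day 0 groups overlapped, and KO day 4 lay above every WT day 4 array. Senp5, a SUMO protease, fell in both genotypes (-0.82 in WT and -0.74 in KO cells). Marchf5, a ubiquitin ligase of the outer membrane, fell in KO cells (-0.37, adjusted p = 0.00938).

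Cdk5 passed in KO cells (-0.29, adjusted p = 0.0124, and 0.0555 without KO day 4 array 1) and Cdk1 in WT cells (-0.31, adjusted p = 0.0184, up to 0.0805 without WT day 0 array 1). At day 4 the ligase Mul1 was lower (-0.27, adjusted p = 0.0233, up to 0.0878 without KO day 4 array 3) and Akap1, an anchor of protein kinase A, higher in KO than in WT cells (0.25, adjusted p = 0.0335, up to 0.105 without WT day 4 array 2).

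**Figure D3:**
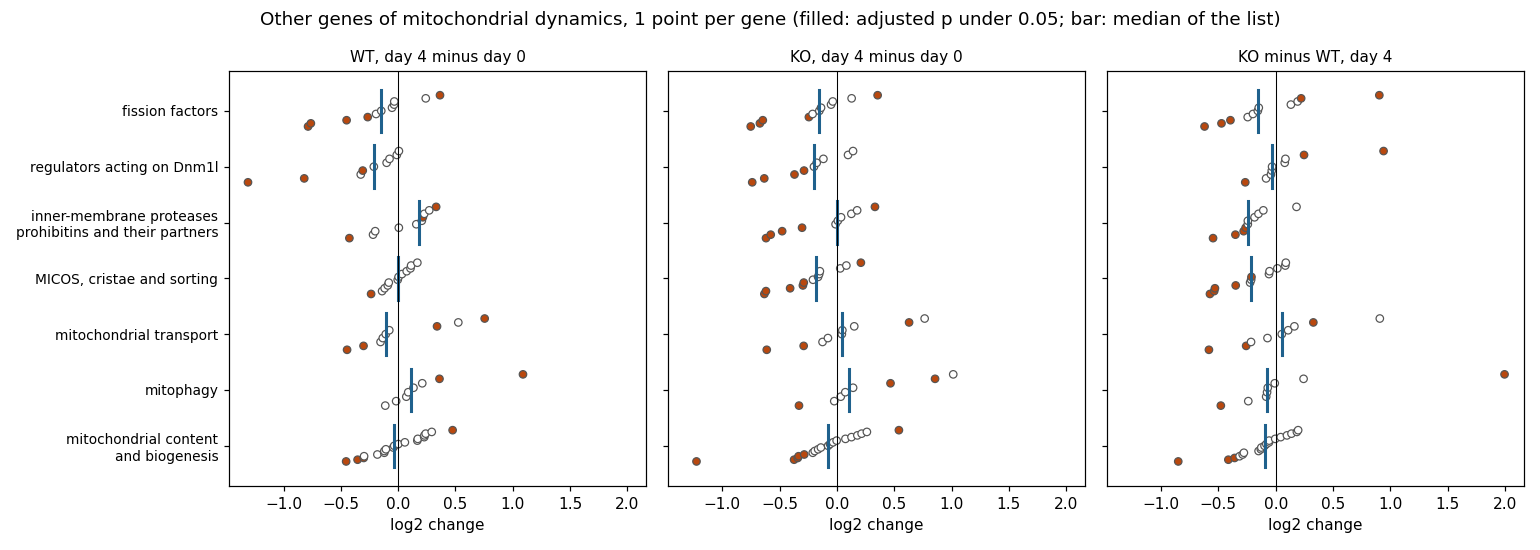
Changes on the log2 scale (horizontal axes) of 78 other genes of mitochondrial dynamics in 7 lists (rows), in WT cells over time, in KO cells over time and between genotypes at day 4; each point is a gene, filled where its adjusted p was under 0.05, and the bar is the median of the list. The point farthest left in KO cells is Tomm40 (-1.23), and the point farthest right between genotypes is Bnip3 (2.00).

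Among genes of MICOS, cristae and membrane sorting, 5 of 12 were lower in KO than in WT cells at day 4 and 0 were higher, against 12.4% and 8.34% of all genes, with a list median of -0.21. They were Samm50, of the outer-membrane sorting machinery (-0.57 ± 0.07, adjusted p = 0.000281), Letm1, a cation exchanger (-0.54 ± 0.08, adjusted p = 0.000484), Dnajc11 (-0.53 ± 0.09, adjusted p = 0.00118), Immt, the core subunit of MICOS (-0.35 ± 0.07, adjusted p = 0.00588), and Mtx1 (-0.21, adjusted p = 0.0374, up to 0.132 without WT day 4 array 2). Over time this list had 5 lower and 1 higher in KO cells, led by Letm1 (-0.63), Dnajc11 (-0.62) and Samm50 (-0.41). In WT cells Mtx1 alone passed (-0.24, adjusted p = 0.019, up to 0.062 without WT day 0 array 2), where 22.9% of all genes passed.

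Among proteases and prohibitins, 4 of 10 were lower and 0 higher in KO than in WT cells at day 4, against 12.4% and 8.34% of all genes: Dele1, a relay of mitochondrial stress that Oma1 cuts (-0.55, adjusted p = 0.0032), Lonp1, the matrix protease (-0.35, adjusted p = 0.0062), and Phb2 and Clpp, whose adjusted p of 0.0186 and 0.023 rose to 0.0749 and 0.0979 without WT day 4 array 3. Lonp1 fell over time in both genotypes (-0.62 in KO and -0.43 in WT cells). In KO cells Spg7 (-0.58), Afg3l1 (-0.48) and Clpp (-0.30) also fell, and Afg3l2 passed in the other direction (0.33, adjusted p = 0.0218, up to 0.0897 without KO day 4 array 1). In WT cells Dele1 (0.33, adjusted p = 0.0372) and Phb2 (0.22, adjusted p = 0.0418) passed upward, up to 0.123 without WT day 0 array 1 and 0.139 without WT day 0 array 2.

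Of 19 genes of import and mitochondrial content, 5 fell and 1 rose in KO cells over time, while 3 fell and 1 rose in WT cells. The 6 and 4 passed lie near the background of 30.8% and 22.9% of all genes. The WT count was 7 with quantile normalization, with the filter on low levels and with a trended and robust prior. Over all genes 5086, 5317 of 16635 and 5247 passed there, in that order. Tomm40, the import channel of the outer membrane, read 8.28, 8.57 and 8.48 in WT day 0, 7.83, 7.98 and 8.16 in WT day 4, 8.36, 8.37 and 8.36 in KO day 0, and 7.12, 7.11 and 7.20 in KO day 4. The KO day 4 arrays were the 3 lowest of the 12. It fell by 1.23 ± 0.10 in KO cells (adjusted p = 1.96e-06) and by 0.45 ± 0.10 in WT cells (adjusted p = 0.00379). Vdac1, a pore of the outer membrane, rose in KO cells (0.54, adjusted p = 0.000374), and Hspa9, a matrix chaperone, fell in both genotypes (-0.34 in KO and -0.30 in WT cells). In WT cells Vdac2 fell (-0.35) and Twnk, the helicase of mitochondrial DNA, rose (0.48). At day 4 Tomm40 (-0.85), Timm23 (-0.41) and Twnk (-0.36, adjusted p = 0.0175, up to 0.0703 without WT day 4 array 3) were lower in KO than in WT cells. These 3 of 19 stand against 20.7% of all genes. Without WT day 4 array 1, 6 of 19 passed there in place of 3, where 5929 of 22180 genes passed.

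Of 9 transport genes, Trak1 rose (0.75 in WT and 0.63 in KO cells) and its paralog Trak2 fell in both genotypes (-0.45 and -0.61), both encoding adaptors between mitochondria and kinesin. Kif5b, the kinesin heavy chain, also fell in both (-0.30 and -0.29). Rhot2, the outer-membrane GTPase Miro2, rose in WT cells (0.34 ± 0.07, adjusted p = 0.00325) and was lower in KO than in WT cells at day 4 (-0.58 ± 0.07, adjusted p = 0.000203). Snph was higher at day 4 (0.33, adjusted p = 0.0224, up to 0.0959 without WT day 4 array 3) and Trak2 lower (-0.26, adjusted p = 0.0372, up to 0.132 without WT day 4 array 2).

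Among 8 mitophagy genes, Pink1, the kinase that marks damaged mitochondria, rose in both genotypes (1.09 ± 0.10 in WT and 0.86 ± 0.10 in KO cells, adjusted p = 7.6e-06 and 3.74e-05). Bcl2l13 rose in KO cells (0.47, adjusted p = 0.00531) and passed in WT cells (0.36, adjusted p = 0.0296, up to 0.1085 without WT day 0 array 2). Fkbp8, an outer-membrane receptor, fell in KO cells (-0.33, adjusted p = 0.00483) and was lower than in WT cells at day 4 (-0.48 ± 0.08, adjusted p = 0.00102). Bnip3, a receptor induced by hypoxia, read 6.75, 6.85 and 6.93 in WT day 0, 8.79, 6.24 and 6.13 in WT day 4, 8.03, 8.10 and 7.98 in KO day 0, and 9.05, 9.04 and 9.07 in KO day 4. Every KO day 4 array lay above every WT day 4 array, and WT day 4 array 1 lay far above its group. KO minus WT at day 4 was 2.00 ± 0.50 (adjusted p = 0.0132), 2.87 without WT day 4 array 1 (adjusted p = 1.91e-09), 1.59 without array 2 (0.0574) and 1.54 without array 3 (0.0627).

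The day 4 change differed between genotypes for 6 of the 78 genes, where 3.95% of all genes passed, each with a lower change in KO cells: Tomm40, Letm1, Rhot2, Dnajc11, Samm50 and Fkbp8. Without WT day 4 array 1 all 6 still passed, but the count and the shared direction changed. Then 12 of 78 passed, 9 with a lower and 3 with a higher change in KO cells. Of all 22180 genes 2140 passed in that refit, in place of 877, with 1178 lower and 962 higher. The 3 higher of the 78 were Bnip3 (1.67, adjusted p = 1.36e-05), Inf2 (0.81, adjusted p = 0.00425) and Dusp6 (0.77, adjusted p = 0.0214). The added lower ones were Immt, Ppargc1a and Timm23. Ppargc1a lay low, at the 22.6th percentile of levels, and read 3.24, 3.95 and 3.86 in WT day 4. Omitting any other array left 1 to 4 of 78, where 395 to 1017 of all genes passed. Among the 6 on all arrays, the largest was that of Tomm40 (-0.77 ± 0.14, adjusted p = 0.00942), the only 1 of the 6 to pass in every omission of 1 array. The other 5 lay between -0.52 and -0.40, with adjusted p from 0.0204 to 0.0495. For Samm50, Letm1, Dnajc11 and Fkbp8 the KO day 4 arrays were the 3 lowest of the 12, whereas Rhot2 was highest on the WT day 4 arrays.

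**Figure D4:**
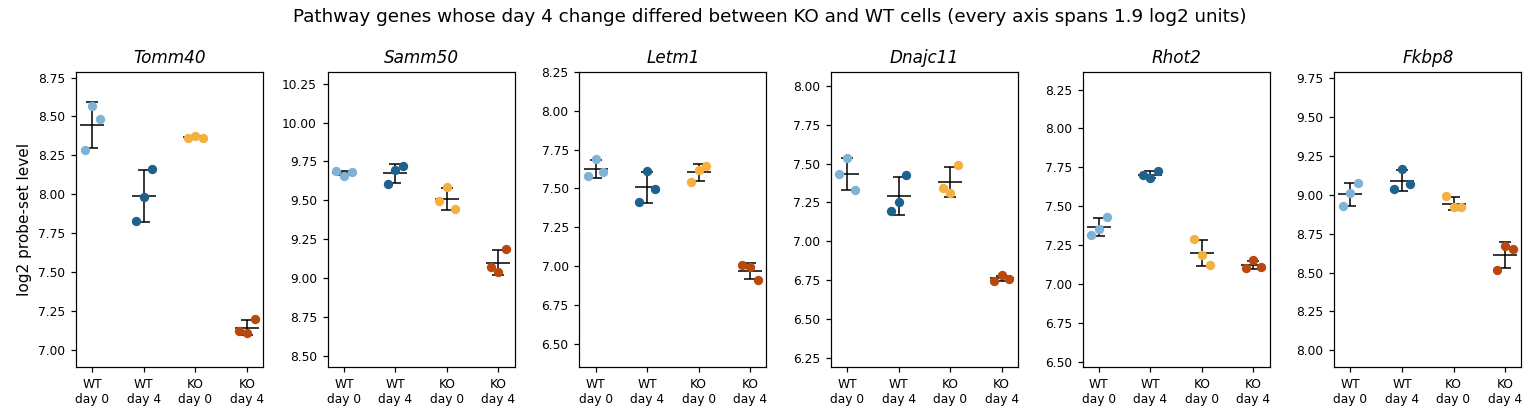
Log2 probe-set levels (vertical axes, each spanning the same range) of the 6 pathway genes whose day 4 change differed between the genotypes, in 4 groups of 3 arrays; points are arrays, bars are group means and whiskers are 1 SD. Tomm40 lies between 7.11 and 7.20 on the KO day 4 arrays and at 7.83 or above on all others.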

How the data were processed

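Biotinylated cDNA was made from total RNA with a whole-transcript kit and read on 12 Affymetrix arrays, per the labels' protocols. The deposited values are on a log2 scale, 1 per probe set and array, and range from 1.33 to 13.35. Affymetrix Expression Console is the software named in the submitters' processing notes. How it corrected background, normalized and summarised, and its version, is not given in the sources used here. No further normalization and no filter on low levels was applied. Arrays have no count or depth.

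Of 41345 probe sets, 23521 had 1 gene symbol, 1814 several and 16010 none. Each gene was read at its brightest probe set by 12-array mean, giving 22180 genes, and the table held 0 columns of other samples. Listed genes without a probe set of their own symbol were not analysed here. Levels of different probe sets are not compared as amounts, since probes differ in brightness.

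One linear model with 4 group means was fitted to all 12 arrays with limma 3.58.1 in R 4.3.3 (8 residual degrees of freedom, 4.56 more from the prior). The 5 two-sided comparisons were adjusted by Benjamini-Hochberg over all genes tested, and each ± on a change is the standard error from limma's moderated variance. The fitting code was tested on simulated data. Earlier results of these data were known when the 10 genes, the lists and the naming rule were chosen. All 10 members were named, and of each list up to 3 genes past the threshold with the smallest p, or all where 5 or fewer passed. Some genes that passed a comparison only without WT day 4 array 1 were named as well. Each alternative changed 1 choice: quantile normalization or median centring of arrays, leaving out genes under the 25th percentile of levels, averaging or keeping all probe sets, weighting arrays, a trended and robust prior, fitting only the groups compared, blocking on the replicate number, requiring a change of 1.5-fold, and omitting each array in turn. Same-numbered arrays of different groups had correlations of deviations between -0.06 and 0.18, not all over 0.1, so the numbers were not taken to pair samples.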

Additional observations from a re-analysis of the deposited data

Results flagged for a closer look

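For 7 genes the change from day 0 to day 4 differed between KO and WT cells by limma's test of the difference itself, adjusted over all genes. The difference, KO minus WT on the log2 scale, was 0.42 for Mfn1, -0.77 for Tomm40, -0.52 for Letm1, -0.48 for Dnajc11, -0.42 for Rhot2, -0.42 for Fkbp8 and -0.40 for Samm50. With 1 array left out in turn, the call was lost in 0 of 12 fits for Tomm40, 4 for Letm1, 9 for Mfn1, 10 each for Rhot2, Fkbp8 and Samm50, and 11 for Dnajc11. The largest adjusted p among these omissions was 0.0302 for Tomm40 and 0.0619, 0.0898, 0.0982, 0.124, 0.12 and 0.119 for the others in the same order. Without WT day 4 array 1 the difference also passed for Bnip3, Inf2 and Dusp6, which were higher, and for Immt, Ppargc1a and Timm23, which were lower in KO cells. Of all genes 2140 then passed, in place of 877. Ppargc1a lay low, at the 22.6th percentile of levels. Groups of 3 arrays were too small for a test of outlying arrays.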

How the results depend on the processing

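The changes of the 10 genes kept direction and call in 557 of 600 refits with 1 array omitted and in 416 of 435 refits under other settings. The other refits crossed the threshold or turned the sign of a value that had not passed. Of the 50 pairs of gene and comparison 10 had passed, so most refits were of changes that had not. A call was lost in 19 refits with 1 array omitted and gained in 3. Under other settings a call was lost in 7 refits and gained in 5. Against 0 genes of the 10 between genotypes at day 0, 1 passed with array weights and in a fit to the 2 groups alone. Against 1 in WT cells over time, 2 passed with arrays centred on their medians, with a trended robust prior and with array weights. Between genotypes at day 4, 0 passed in place of 3 in a fit to the 2 groups alone. With a minimum of 1.5-fold, 0 of the 10 passed in any comparison. With the replicate number as a block, 0 of the 10 passed for the difference of changes (Mfn1 at 0.42, adjusted p = 0.0535), and the block changed no other call of the 10. Leaving out 1 array in turn gave 0 to 1 at day 0 between genotypes, 1 to 4 at day 4, 1 to 2 in WT cells, 3 to 5 in KO cells and 0 to 1 for the difference. Of all genes, 769 to 1936, 2946 to 5929, 3977 to 5165, 5539 to 7646 and 395 to 2140 then passed in that order, against 1242, 4596, 5072, 6828 and 877. With array weights 2562 passed at day 0 and 1852 for the difference, and in fits to 2 groups 2453 at day 0 and 1923 at day 4. With a 1.5-fold minimum 672, 1323, 2074 and 2616 passed in the first 4 comparisons. The sign turned, never for a call, at these values: 0.0309 for Dnm1l in KO cells and 0.0266 for the Opa1 difference of changes with quantile normalization, -0.0132 for Yme1l1 in WT cells, -0.0223 for Gdap1 and -0.0248 for Opa1 in KO cells with centred medians, and with array weights -0.00957 for Dnm1l between genotypes at day 4 and -0.0451 for the Mfn2 difference of changes. Omissions spanned 0 for KO minus WT of Fis1 (-0.105 to 0.0068), Gdap1l1 (-0.0726 to 0.202) and Opa1 (-0.00361 to 0.0753) at day 0, for Dnm1l (-0.0383 to 0.0602) and Opa1 (-0.0319 to 0.0432) at day 4, in KO cells for Gdap1 (-0.0345 to 0.126) and Opa1 (-0.0116 to 0.0637), and for the difference of changes of Gdap1l1 (-0.0588 to 0.215), Mff (-0.0861 to 0.0284), Mfn2 (-0.0982 to 0.134) and Opa1 (-0.0665 to 0.0186). The cause was not tested. Gdap1 lay too low for the 25th percentile filter to give it a value. Levels near the floor limit what Gdap1 can show.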
